A study of Mus musculus with 30 samples.

Results

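The comparison is of IDG-SW3 cells early in differentiation, with and without 24 h of 1,25(OH)2D3, the active hormone made from vitamin D3, across the genes they expressed. IDG-SW3 is a conditionally immortalised mouse line that goes from late osteoblast to osteocyte in culture. The cells were grown at 33 °C with interferon-gamma, then differentiated at 37 °C with the interferon removed and with ascorbic acid and beta-glycerophosphate added. At day 3 of differentiation, 3 cultures had received 100 nM 1,25(OH)2D3 and 3 had received its ethanol vehicle for the last 24 h. The submitters' design calls the replicates biological, and the line is 1 cell line, so the spread is that between its cultures. The same experiment holds 3 hormone and 3 vehicle libraries of day 35, and a separate experiment holds untreated cells, both used here only for comparison. Genes were kept where the 3 libraries of at least 1 of the 2 day 3 groups all held 5 or more CPM, which are counts brought to a common library size with TMM scaling. The rule kept 9033 genes of the 20055 tested and the 25410 symbols counted. Of these, 8170 passed in both groups, 318 in vehicle only and 545 in hormone only. Just inside the limit, *Pgap2* had 5.00, 9.38 and 5.11 CPM with vehicle. Just outside it, *Cdk5* had 5.50, 6.80 and 5.00 CPM with the hormone, where the lowest library was under 5 before rounding.

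The hormone acts through the vitamin D receptor, a nuclear receptor that binds DNA as a pair with a retinoid X receptor such as RXRα. Best known among its targets is *Cyp24a1*, whose enzyme breaks the hormone down. In bone-forming cells the receptor is also known for raising osteopontin (*Spp1*) and, in mature cells, the osteoclast factor RANKL (*Tnfsf11*).

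The cells carried osteoblast markers and some of the osteocyte markers. All 9 osteoblast markers were detected, summing to between 8641 and 12752 CPM with vehicle and between 6625 and 7849 CPM with the hormone. Most of the sum was *Col1a2*, *Sparc* and *Col1a1*, at vehicle means of 5316, 2694 and 2066 CPM. *Runx2*, *Sp7* and *Bglap* were low, at 4.19, 6.66 and 7.34 CPM with vehicle. The means of *Spp1*, *Sp7* and *Bglap* were higher with the hormone and those of the other markers lower. The osteocyte genes *Sost* and *Mepe* had 0 counts in the 3 vehicle libraries, and *Sost* had 16, 18 and 1 counts with the hormone. The other osteocyte markers had vehicle means of 75.7 CPM (*Pdpn*), 37.1 CPM (*Phex*) and 5.63 CPM (*Dmp1*), and the 5 summed to 106.7 to 132.9 CPM with vehicle and 58.1 to 61.8 CPM with the hormone. The hormone libraries stood apart in depth and in background reads. They held 22062900 to 30059100 counts against 45091700 to 46496400 with vehicle (to 6 significant digits), yet detected 22862 to 23485 symbols against 15346 to 17972. Background was read from 1100 olfactory receptor genes, which have no known role in bone. They were at 0.123 to 0.166 CPM per kilobase with the hormone and 0.0121 to 0.0175 with vehicle. For the length of *Sost* this background gives 0.313 CPM with the hormone, near its hormone mean of 0.367 CPM. Among the kept genes of known length, 0.871% had a hormone mean under 5 times the level this background gives. Hormone replicate 3 also differed from its 2 partners in fat cell transcripts. *Fabp4* had 0.810, 1.05 and 102.7 CPM and *Adipoq* 0.564, 0.113 and 28.9 CPM in hormone replicates 1 to 3. The sum of 5 adipocyte markers was 33.8 to 204.7 CPM with the hormone and 20.0 to 27.6 CPM with vehicle. Counts of calls without this library are given below, and the part of fat cell transcripts in the results was not tested.

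In all, 2384 of the 9033 genes differed at an adjusted p below 0.05 (edgeR quasi-likelihood test, adjusted over all 20055 genes). Of these 611 were higher with the hormone and 1773 lower, which is 6.76% and 19.6% of the kept genes, against backgrounds over all genes tested of 11.4% higher and 9.09% lower. Genes kept through 1 group only were picked for being higher there, so their direction is set by the rule. In the 8170 that passed in both groups 389 were higher and 1651 lower. The split between rises and falls depended on the scaling. Over the kept genes the median log2 change was -0.25 and over all tested genes 0.26. With the changes centred on the kept genes' median the calls were 1102 higher and 761 lower, 12.2% and 8.42% of the kept genes. With scaling factors from genes of 20 CPM or more in every vehicle library they were 1602 higher and 664 lower. All 611 rises and 664 of the falls were called under these 3 scalings, and no gene was called in opposite directions. Without hormone replicate 3 the counts were 377 higher and 922 lower, and without hormone replicate 2 they were 384 and 1058. Without vehicle replicate 3, 377 genes were higher and 1718 lower.

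**Figure D1:**
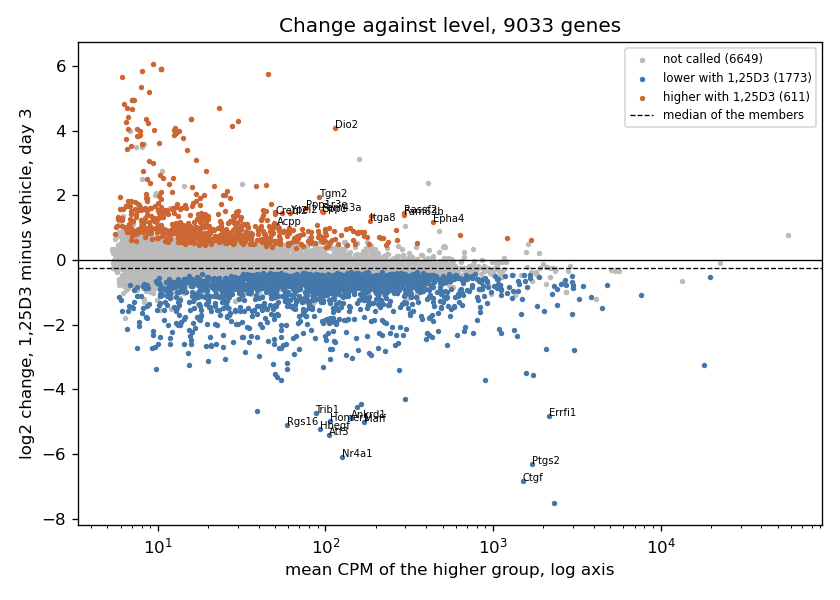
Log2 change with 1,25D3 at day 3 against the mean CPM of the higher group for each of the 9033 genes, coloured by call. The dashed line is their median, -0.25. The genes named lie at 50 CPM or more because the naming rule asks for that level. Among all 9033 genes, most of the steepest rises lie at the low end of the axis.

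Among genes that passed in both groups, 82 were at least 4-fold lower and 2 at least 4-fold higher. A further 54 that passed in vehicle only were 4-fold lower and 63 that passed in hormone only 4-fold higher, directions that the level rule sets. Of the 136 falls, in 135 every vehicle library lay above every hormone library, an order seen in either direction in 50.9% of all tested genes. *Ctgf*, a secreted matricellular protein of the CCN family, had 871, 2275 and 1361 CPM with vehicle and 17.1, 10.6 and 11.9 CPM with the hormone. That was a log2 change of -6.83 ± 0.35 (adjusted p = 1.27e-08), with vehicle replicate 1 the lowest of its group and no overlap. *Ptgs2*, which encodes the inducible cyclooxygenase of prostaglandin synthesis, had 1568, 1675 and 1897 CPM with vehicle and 21.1, 21.9 and 21.7 CPM with the hormone. The libraries of each group lay close together, and the log2 change was -6.31 ± 0.25 (adjusted p = 1.4e-09). *Errfi1*, an inhibitor of the EGF receptor, had 1951, 2315 and 2232 CPM with vehicle and 74.1, 75.6 and 77.4 CPM with the hormone, a log2 change of -4.84 ± 0.21 (adjusted p = 3.01e-09). *Hbegf*, a ligand of that receptor, fell as well, with 90.2, 106 and 83.0 CPM with vehicle and 2.54, 1.53 and 3.29 CPM with the hormone and a log2 change of -5.24 ± 0.26 (adjusted p = 1.19e-08). Further genes among the 12 deepest falls were *Nr4a1* (-6.09), *Atf3* (-5.41), *Rgs16* (-5.11), *Maff* (-5.03), *Homer1* (-4.98), *Ankrd1* (-4.89) and *Trib1* (-4.72). Of the 12, 7 passed the level rule in vehicle only, namely *Nr4a1*, *Atf3*, *Hbegf*, *Rgs16*, *Homer1*, *Ankrd1* and *Trib1*. All 12 were picked as called in these same libraries, and all kept the call under every alternative run. In RNA from whole cultures, fewer cells with a transcript and less of it per cell cannot be told apart.

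Immediate-early genes, which cells switch on within minutes of a stimulus without new protein, were lower throughout. All 18 kept members of a list of 22 were called lower, against 19.6% of the kept genes and 9.09% of all tested genes. Of the 18, 7 passed in vehicle only, where the rule sets the direction, and the other 11 passed in both groups. The median log2 change of the 18 was -2.68, against -0.25 over the kept genes and 0.26 over all tested genes. After centring, 17 of the 18 were lower, against 8.42% of the kept genes. The AP-1 subunit gene *Jun* had 268, 341 and 296 CPM with vehicle and 66.4, 73.5 and 66.0 CPM with the hormone, a log2 change of -2.14 ± 0.14 (adjusted p = 2.04e-07). *Fos* went from 56.1 ± 11.0 to 9.13 ± 1.32 CPM (SD, n = 3 each) and *Fosb* from 38.8 ± 21.4 to 1.53 ± 0.128 CPM. The zinc finger factor gene *Egr1* had 52.3, 151 and 114 CPM with vehicle and 24.3, 13.5 and 8.98 CPM with the hormone, and *Egr2* had 103, 93.1 and 95.7 CPM with vehicle and 7.75, 11.2 and 10.4 CPM with the hormone. Both pairs of groups were apart, at log2 changes of -2.77 and -3.31. *Klf6*, another zinc finger factor, had 2204, 1869 and 2173 CPM with vehicle and 269, 321 and 338 CPM with the hormone, a log2 change of -2.75 ± 0.17 (adjusted p = 8.39e-08). *Dusp1*, a phosphatase that turns off MAP kinases, changed by -3.63 (adjusted p = 0.00029), and *Zfp36*, whose protein destabilises AU-rich mRNAs, by -2.38 (adjusted p = 0.000214).

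**Figure D2:**
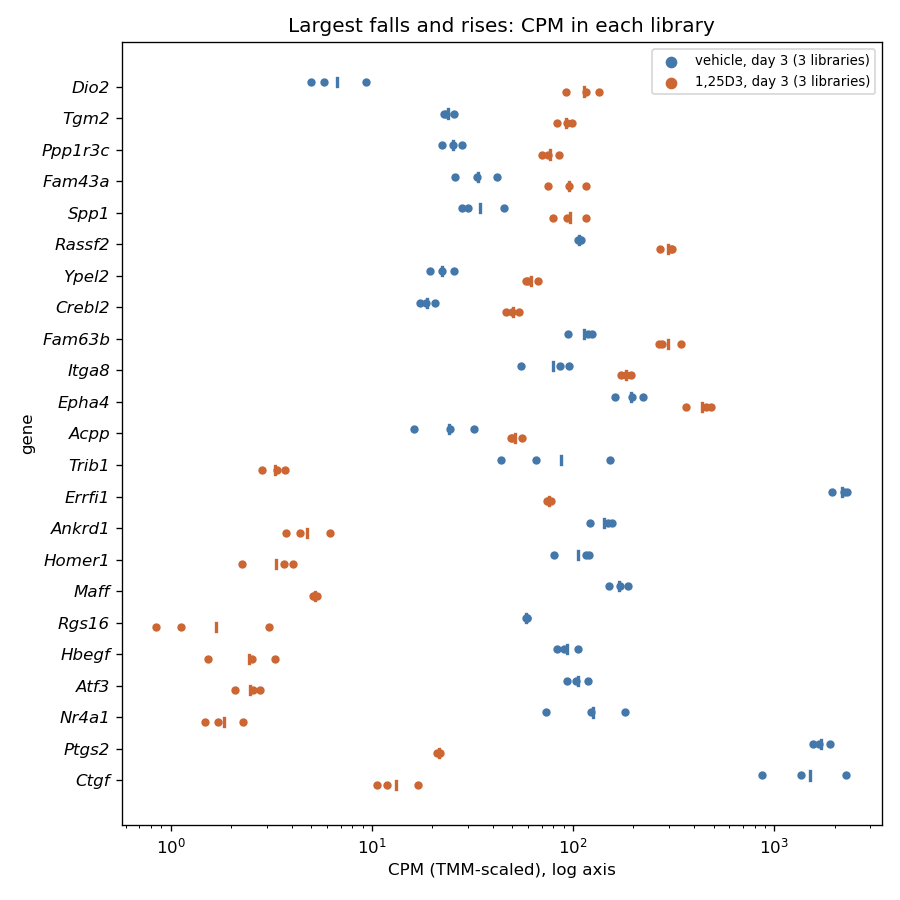
CPM (log axis) of 11 of the 12 genes with the deepest falls and of the 12 with the largest rises under the naming rule, 1 point per library and a bar at each mean. Vehicle and hormone libraries do not overlap for any gene shown, and *Ctgf* spans the widest range.

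Genes of the contractile cytoskeleton, many of them known targets of serum response factor (SRF), fell together. All 12 kept members of that list passed in both groups. All 12 were called lower, against 19.6% of the kept genes and 9.09% of all tested genes. Their median log2 change was -1.33, against -0.25 over the kept genes. After centring 9 of 12 were lower, against 8.42% of the kept genes. *Srf* itself had 70.7, 95.3 and 78.6 CPM with vehicle and 18.4, 18.9 and 17.1 CPM with the hormone, a log2 change of -2.17 ± 0.18 (adjusted p = 1.65e-06). Vinculin (*Vcl*), which links integrins to actin, had 1118, 1658 and 1421 CPM with vehicle and 277, 277 and 259.6 CPM with the hormone. Its log2 change was -2.37 ± 0.20 (adjusted p = 1.66e-06), and the groups were well apart. Smooth muscle actin (*Acta2*) went from 1828 ± 541 to 686 ± 21.1 CPM (SD, n = 3 each), and transgelin (*Tagln*) changed by -1.55 (adjusted p = 3.76e-06). *Cnn1* and *Lmod1*, both smooth muscle actin-binding genes, changed by -2.17 (adjusted p = 0.0001) and -1.90 (adjusted p = 4.87e-06). Skeletal muscle markers summed to 5.27 to 11.5 CPM with vehicle and 1.81 to 2.85 CPM with the hormone. That fall was of *Acta1* alone, with means of 7.54 CPM with vehicle and 1.14 CPM with the hormone. *Myh3* (0.467 to 0.908 CPM), *Myog* (0.0163 to 0.151 CPM) and *Ckm* (0 to 0.173 CPM) were higher, all at low levels.

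SRF binds a CArG box, a CC and GG pair around 6 A or T bases. The RefSeq promoter table (build GRCm38.p6, 250 bases before to 50 after each start) held a match on either strand in 1.63% of its 32851 windows. It held windows for 10 of the 12 contractile genes, 4 of which had a match, a search chosen after the falls were seen. The list was drawn up to hold known SRF targets, so this share is no result of these data. Of the 12 deepest falls 8 had windows, and 0 of these genes had a match. The window of *Srf*, at chr17:46556113-46556412 on the minus strand, had 2, shown in capitals because the SRF gene is itself among the genes that fell.
Srf: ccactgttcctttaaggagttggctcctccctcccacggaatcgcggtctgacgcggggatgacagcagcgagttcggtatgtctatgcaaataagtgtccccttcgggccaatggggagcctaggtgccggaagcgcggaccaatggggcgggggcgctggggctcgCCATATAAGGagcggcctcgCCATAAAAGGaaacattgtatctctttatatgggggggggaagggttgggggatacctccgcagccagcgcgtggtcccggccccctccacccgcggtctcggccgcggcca
These letters describe the window and do not show binding.

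Matricellular genes, whose proteins sit in the matrix and signal to cells, had 12 of 19 kept members lower (63.2%, against 19.6% of the kept genes) and none higher, and 9 lower after centring, against 8.42%. *Thbs1*, thrombospondin 1, had 15952, 19809 and 18733 CPM with vehicle and 2035, 1963 and 1750.1 CPM with the hormone. The log2 change was -3.25 ± 0.18 (adjusted p = 2.32e-08). *Cyr61*, a CCN family relative of *Ctgf*, had 1405, 2159 and 1624 CPM with vehicle and 146, 147 and 149.6 CPM with the hormone and changed by -3.55 ± 0.18 (adjusted p = 1.19e-08). Other CCN members moved far less, *Nov* by -0.84 (adjusted p = 0.00382) and *Wisp1* by -0.88 (adjusted p = 0.000176). Tenascin C (*Tnc*) changed by -1.21 (adjusted p = 8.61e-05). Among matrix proteases and their inhibitors 9 of 19 were lower (47.4%) and none higher, and 5 were lower after centring, where 2 became higher. Of the 19, 17 passed in both groups, with 8 of them lower, 1 in vehicle only and 1 in hormone only. The urokinase gene *Plau* had 276, 308 and 281 CPM with vehicle and 49.3, 65.8 and 58.7 CPM with the hormone, and its receptor gene *Plaur* had 24.9, 25.5 and 25.0 CPM with vehicle and 3.17, 3.17 and 2.72 CPM with the hormone. Both genes of plasminogen activation fell, with log2 changes of -2.32 (adjusted p = 7.36e-07) and -3.06 (adjusted p = 5.03e-06) for *Plau* and *Plaur*. *Plaur* passed the level rule in vehicle only, so the rule sets its direction. *Timp3*, a metalloproteinase inhibitor, changed by -2.77 ± 0.21 (adjusted p = 6.54e-07), whereas *Mmp13*, collagenase 3, had 142, 234 and 164 CPM with vehicle and 268, 223 and 212 CPM with the hormone and was not called, at a log2 change of 0.38 (adjusted p = 0.149). The *Mmp13* groups overlapped, and it was called higher under 4 of its alternatives.

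In the BMP and TGF-β list 11 of 19 kept members were lower (57.9%, against 19.6% of the kept genes) and 2 higher, a share of 10.5% near the 11.4% of all tested genes. Of the 19, 17 passed in both groups, with 9 of them lower and 2 higher, and 2 passed in vehicle only, where the rule sets the direction. After centring 10 were lower and 2 higher. *Inhba*, the activin A subunit, had 257, 364 and 277 CPM with vehicle and 19.2, 15.4 and 11.0 CPM with the hormone, a log2 change of -4.30 ± 0.22 (adjusted p = 1.31e-08). The ligand gene *Tgfb2* changed by -2.34 (adjusted p = 3.55e-06). Genes that these pathways are known to induce, *Id1*, *Id2* and *Smad7*, changed by -2.55, -1.62 and -1.87. *Id1* passed in vehicle only, so the rule sets its direction. The rises were *Bmp4* at 0.54 (adjusted p = 0.0179) and *Ltbp2*, a latent TGF-β binding protein relative, at 1.07 (adjusted p = 0.00818). Cytokine and inflammation genes gave 9 lower (56.2%) and 2 higher of 16, of which 3 passed in vehicle only and 1 in hormone only, and 7 lower and 2 higher after centring. The chemokine gene *Cxcl1* had 76.5, 51.8 and 63.9 CPM with vehicle and 10.7, 13.2 and 11.8 CPM with the hormone, and *Ccl2* and *Ccl7* changed by -2.64 (adjusted p = 0.000363) and -2.67 (adjusted p = 0.000535). *Ccl2* and *Ccl7* passed in vehicle only, so the rule sets their direction. *Il1rl1*, the receptor for IL-33, had 113, 209.8 and 148 CPM with vehicle and 19.7, 22.3 and 25.9 CPM with the hormone, a log2 change of -2.79 ± 0.27 (adjusted p = 7.67e-06). Its vehicle and hormone libraries did not overlap.

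**Figure D3:**
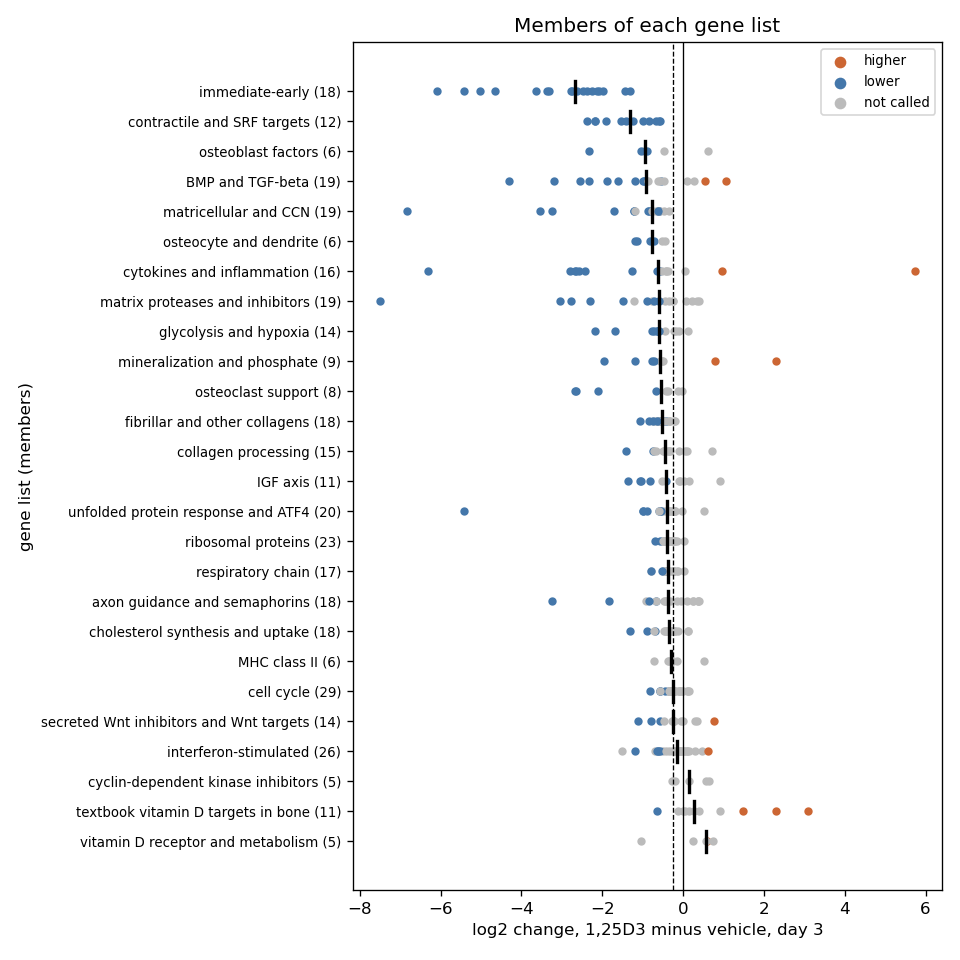
Log2 change at day 3 of each kept member of the gene lists with at least 5 kept members, coloured by call. The thick bar is the list median, the solid line is 0 and the dashed line the median of the 9033 genes. Immediate-early and contractile genes lie furthest to the left.

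Rises of 8-fold or more numbered 47 and falls of that size 34. Of the genes that passed in both groups, 88 rose at least 2-fold and none 8-fold, while 15 fell at least 8-fold. The 47 genes that rose at least 8-fold all passed in the hormone group only, and 26 of them carry predicted or clone-type symbols. Among the 9033, 21 genes had exactly the counts of another symbol, as copies that share reads do, so single values of such families are uncertain. *Dio2*, the deiodinase that activates thyroid hormone, had the largest rise under the rule for named genes, which asks for 50 CPM or more, and passed the level rule in hormone only. It had 9.37, 5.82 and 4.98 CPM with vehicle and 115, 135 and 92.1 CPM with the hormone, a log2 change of 4.09 ± 0.28 (adjusted p = 3e-07) that ranged from 3.95 to 4.22 as each hormone library was left out. *Tgm2*, transglutaminase 2, had 22.8, 25.5 and 23.3 CPM with vehicle and 93.5, 83.4 and 99.4 CPM with the hormone and changed by 1.95 ± 0.13 (adjusted p = 3.24e-07). *Ppp1r3c*, which directs a phosphatase to glycogen, had 28.2, 22.4 and 25.4 CPM with vehicle and 70.0, 74.8 and 85.4 CPM with the hormone, a change of 1.60 ± 0.14 (adjusted p = 3.71e-06). In each of the 3 genes all hormone libraries lay above all vehicle libraries. Others of the 12 largest rises under the rule for named genes were *Fam43a* (1.51), *Rassf2* (1.46), *Ypel2* (1.46), *Crebl2* (1.41), *Fam63b* (1.39), the integrin gene *Itga8* (1.21), the ephrin receptor gene *Epha4* (1.18) and *Acpp* (1.08). Complement *C3* had 0.659, 0.428 and 1.44 CPM with vehicle and 60.2, 38.5 and 37.4 CPM with the hormone, a log2 change of 5.74 ± 0.41 (adjusted p = 4.06e-07) and of 5.86 without hormone replicate 3. Lipoprotein lipase (*Lpl*) had 15.8, 21.1 and 19.6 CPM with vehicle and 30.4, 32.8 and 70.6 CPM with the hormone. Its log2 change was 1.24 ± 0.27 (adjusted p = 0.00648), and 0.75 without hormone replicate 3, the library with the fat cell transcripts.

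The windows of *Dio2*, the leading rise under the naming rule, and *Errfi1*, one of the deepest falls, both hold TGACGTCA. It is the palindrome that cyclic AMP response factors bind. This motif reads the same on both strands, was searched after the changes were seen, and was found in 1.79% of all windows. Among the 12 deepest falls 8 had windows and 2 of these genes held it, and among the 12 largest rises 9 had windows and 1 held it. The motif is in capitals. The *Dio2* window is chr12:90738989-90739288 on the minus strand and the *Errfi1* window chr4:150854820-150855119 on the plus strand.
Dio2: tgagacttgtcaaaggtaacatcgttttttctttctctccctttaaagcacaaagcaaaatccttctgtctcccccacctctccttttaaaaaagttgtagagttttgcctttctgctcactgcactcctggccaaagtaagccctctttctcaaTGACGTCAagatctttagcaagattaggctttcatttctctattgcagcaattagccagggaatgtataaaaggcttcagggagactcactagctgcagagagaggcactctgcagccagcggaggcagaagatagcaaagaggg
Errfi1: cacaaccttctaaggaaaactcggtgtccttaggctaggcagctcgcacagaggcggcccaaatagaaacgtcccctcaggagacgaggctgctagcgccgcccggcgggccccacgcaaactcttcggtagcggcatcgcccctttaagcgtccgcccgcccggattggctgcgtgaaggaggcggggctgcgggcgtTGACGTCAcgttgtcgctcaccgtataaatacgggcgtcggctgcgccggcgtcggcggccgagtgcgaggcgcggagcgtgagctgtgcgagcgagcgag
The vitamin D response element, 2 half-sites (A or G, G, G or T, T, C, A) spaced by 3 bases on either strand, was found in 0.0396% of all windows and in none of the 9 rising genes with a window. A lone half-site was found in 43.7% of all windows and in 1 of those 9 genes. No match says only that these letters are not in the window.

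Of the vitamin D pathway, the receptor partner gene *Rxra* rose and the best-known targets split. *Rxra* had 65.9, 64.3 and 69.0 CPM with vehicle and 96.8, 102 and 101 CPM with the hormone, a log2 change of 0.59 ± 0.13 (adjusted p = 0.00816). It was the single call among 5 kept members of that list, where 6.76% of the kept genes were higher. The receptor gene *Vdr* was under the level rule, with 1.41, 4.28 and 2.59 CPM with vehicle and 7.15, 3.74 and 4.80 CPM with the hormone and a log2 change of 0.91 (adjusted p = 0.0774), and it was called higher under 4 alternatives. *Cyp24a1* was also under the rule because 1 hormone library held less than 5 CPM. It had 4, 6 and 5 counts with vehicle and 261, 148 and 276 with the hormone, and its log2 change was 5.87 ± 0.37 (adjusted p = 1.33e-07). Of 11 kept textbook targets 3 rose (27.3%, against 6.76% of the kept genes and 11.4% of all tested genes). *Spp1* had 28.2, 45.3 and 30.2 CPM with vehicle and 116, 93.2 and 79.6 CPM with the hormone, a change of 1.48 ± 0.21 (adjusted p = 0.00024). *Enpp1*, which makes the mineralization inhibitor pyrophosphate, had 11.1, 6.95 and 8.74 CPM with vehicle and 51.1, 43.8 and 37.4 CPM with the hormone and changed by 2.31 ± 0.29 (adjusted p = 8.83e-05). Its relative *Enpp3* had 2.05, 0.654 and 3.19 CPM with vehicle and 19.0, 15.1 and 16.3 CPM with the hormone, a change of 3.09 ± 0.41 (adjusted p = 0.000142). *Enpp3* passed the level rule in hormone only, so the rule sets its direction. *Cebpb* was the one called lower, at -0.64 (adjusted p = 0.0299), and lost the call after centring (log2 -0.39, adjusted p = 0.139). *Tnfsf11* had 10.6, 8.01 and 11.2 CPM with vehicle and 8.49, 9.97 and 8.89 CPM with the hormone, overlapping groups with a log2 change of -0.12 (adjusted p = 0.72). The gene of its decoy receptor osteoprotegerin, *Tnfrsf11b*, had 21.4, 52.2 and 31.0 CPM with vehicle and 9.55, 6.60 and 8.01 CPM with the hormone and changed by -2.12 ± 0.31 (adjusted p = 0.000316).

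Bone matrix and mineral genes split. Of the 9 kept members of the mineralization list 4 were lower (44.4%, against 19.6% of the kept genes) and 2 higher (22.2%, against 6.76%). After centring 3 were lower and 2 higher, and with scaling from genes of 20 CPM or more 2 were lower and 2 higher. The osteocalcin genes *Bglap* and *Bglap2* had log2 changes of 0.27 (adjusted p = 0.473) and 0.04 (adjusted p = 0.927), and their groups overlapped. *Alpl*, the tissue-nonspecific phosphatase of mineralization, had 51.6, 125.3 and 78.1 CPM with vehicle and 71.0, 51.1 and 57.2 CPM with the hormone and was not called, at a log2 change of -0.51 (adjusted p = 0.146). Neither chain of type I collagen was called, *Col1a1* at -0.75 (adjusted p = 0.115) and *Col1a2* at -0.34 (adjusted p = 0.193). Bone sialoprotein (*Ibsp*) had 45.9, 31.5 and 36.9 CPM with vehicle and 20.3, 25.2 and 22.0 CPM with the hormone and was called lower at -0.76 (adjusted p = 0.0132), a call lost after centring (log2 -0.51, adjusted p = 0.0632). *Phex*, an endopeptidase gene of phosphate balance, was lower at -0.71 (adjusted p = 0.00589), and lost the call with scaling from genes of 20 CPM or more (log2 -0.35, adjusted p = 0.143). The matrix phosphoprotein gene *Dmp1*, which was under the level rule, changed by -1.51 (adjusted p = 0.00161), and *Ank*, a pyrophosphate transporter gene, by -1.19 (adjusted p = 0.00691). Both kept the call under all 13 alternatives. *Slc20a1*, a sodium-phosphate transporter, had 195, 283 and 215 CPM with vehicle and 67.0, 51.2 and 61.3 CPM with the hormone, a change of -1.95 ± 0.18 (adjusted p = 5.23e-06). The osteoblast factor gene *Sp7* had 4.68, 8.73 and 6.56 CPM with vehicle and 11.2, 10.1 and 9.47 CPM with the hormone, a log2 change of 0.63 (adjusted p = 0.0538). All its hormone libraries lay above the vehicle libraries, and it was called higher under 5 of 13 alternatives. Of 18 kept collagen genes 8 were lower (44.4%, against 19.6% of the kept genes) and 2 after centring, a share near the 8.42% of kept genes, and *Col12a1* changed most among those named, by -1.07 ± 0.17 (adjusted p = 0.000676). The collagen cross-linking enzyme gene *Lox* changed by -1.41 (adjusted p = 0.00144). Of 29 kept cell cycle genes 4 were lower (13.8%, under the 19.6% of kept genes) and 1 after centring, with *Mki67* at -0.25 (adjusted p = 0.424). Ribosomal protein genes (2 of 23 lower, 8.70%) and respiratory chain genes (3 of 17 lower, 17.6%) were also under 19.6% and had no call after centring.

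The response was compared with that of day 35 cells by the interaction in the same fit. Day 35 cells had responses called in 4.56% of all tested genes, and the 2 responses differed in 7.08% of them. Among the kept genes 1043 differed, 788 with the day 35 response the higher and 255 the lower. Day 35 hormone replicate 2 had 0.121 CPM per kilobase of background, against 0.0104 and 0.0152 in its partners. Without that library 1789 kept genes differed, 1496 with the day 35 response the higher. With all libraries and scaling from genes of 20 CPM or more the split was 519 and 780. Of the 136 genes at least 4-fold lower at day 3 the difference was called in 119, a count raised by the choice of genes on the same day 3 values, and 15 were called lower at day 35. *Ctgf* changed by 1.44 at day 35 (difference 8.28 ± 0.43, adjusted p = 3.58e-08). *Ptgs2* changed by 0.19, a difference of 6.50 ± 0.31, adjusted p = 1.75e-08. Among immediate-early genes 15 of 18 differed between the days. Rises differed in both directions. *Dio2* rose less at day 35 (1.40, difference -2.69 ± 0.35, adjusted p = 0.00022), and *Spp1* more (3.56, difference 2.08 ± 0.29, adjusted p = 0.00035). *Tnfsf11* reached 3.48 at day 35, a difference of 3.60 ± 0.34, adjusted p = 9.85e-06. For *Tgm2* (1.94), *Rassf2* (1.49) and *Fam63b* (1.39) the 2 days gave nearly equal estimates and the difference was not called.

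**Figure D4:**
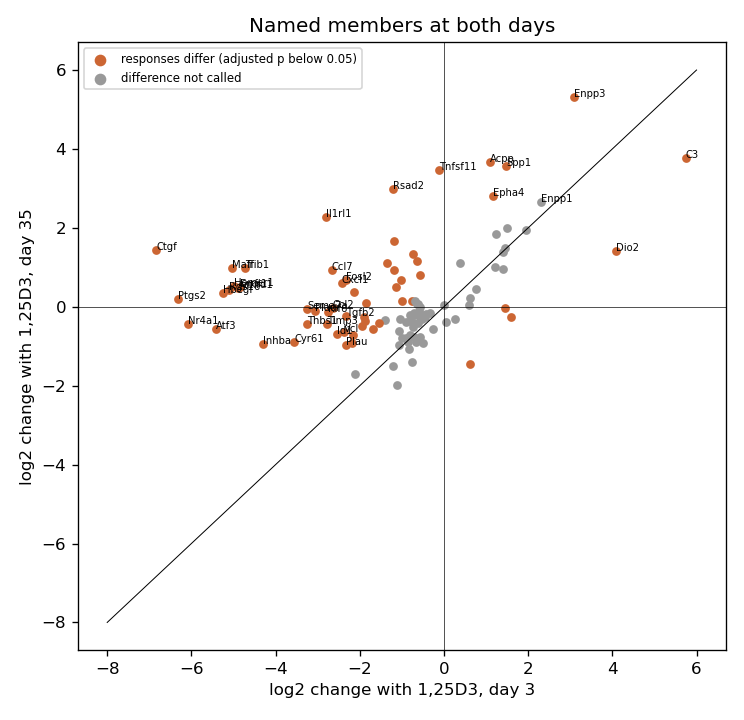
Log2 change with 1,25D3 at day 3 and at day 35 of the named genes kept by the level rule, with the line of equal change. Orange points have a called difference between the days. The 11 deepest falls shown lie between -0.57 and 1.44 at day 35.

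Untreated cells of the other experiment were set beside these values at day 3 and day 7. The 6 libraries share no sample with the hormone comparison and were made with another kit, and their unit, RPKM, was read from the values. rRNA symbols hold 71.6% to 80.1% of each library's sum, and day 3 and day 7 libraries are partly from different sequencing runs. *Ctgf* had 211, 254 and 248 RPKM at day 3 and 10.3, 10.7 and 8.64 RPKM at day 7. *Ptgs2* had 51.5, 62.6 and 62.1 RPKM at day 3 and 3.07, 3.32 and 3.44 RPKM at day 7. In both genes day 7 lay below day 3 without overlap. *Dio2* went the other way, with 0.827, 0.583 and 0.283 RPKM at day 3 and 14.2, 11.0 and 14.3 RPKM at day 7, and so did *Spp1*, with 4.49, 2.59 and 3.89 RPKM at day 3 and 14.3, 16.0 and 20.8 RPKM at day 7. Genes of 1 RPKM or more in all 3 libraries of either day numbered 8741, of which 19.0% had all day 7 libraries below day 3 and 37.0% all above. Among the 1457 genes called lower with the hormone and measured there, 621 were below and 228 above. Of the 118 at least 4-fold lower with the hormone, 101 were below. Of 327 called higher with the hormone, 251 were above and 20 below. Across 6509 genes Pearson's r between the changes was 0.56 and Spearman's rho 0.47, given as a description since genes are not independent replicates. Not all genes matched: *Jun* had 109.9, 111 and 109 RPKM at day 3 and 154, 133 and 155 RPKM at day 7, and *Tnfrsf11b* had 11.9, 16.3 and 20.3 RPKM at day 3 and 16.1, 15.2 and 19.0 RPKM at day 7. Whether the hormone and vehicle cultures were at the same stage of differentiation was not tested.

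**Figure D5:**
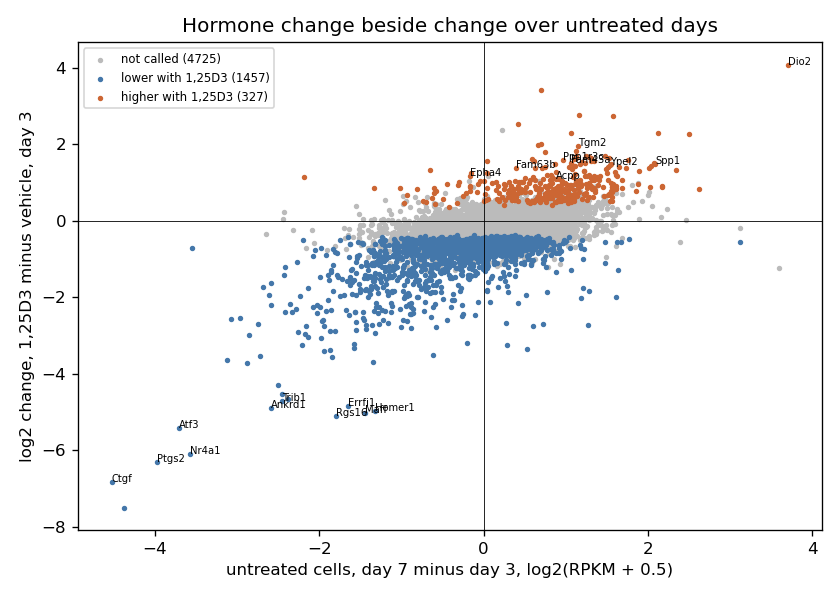
Log2 change with 1,25D3 at day 3 against the day 7 minus day 3 difference of untreated cells on the log2(RPKM + 0.5) scale, for 6509 genes coloured by call. *Ctgf* and *Ptgs2* lie at the lower left and *Dio2* at the upper right.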

How the data were processed

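RNA depleted of rRNA was sequenced as directional libraries, per the labels' protocols. The reads were aligned with TopHat (version not stated) to mm9, per the submitters' processing notes, and how they were counted is not given in the sources used here. The deposited files of the hormone experiment hold whole numbers and were read as raw counts, summed per symbol. The deposited files of untreated cells name no unit, and no source says how the authors made their values. As deposited they were read here as RPKM because their values fall with gene length relative to the counts (slopes of -0.810 to -0.990 on log2 length) and their sums differ, and the row with the highest mean was used per symbol.

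Counts of all 12 libraries of the hormone experiment were fitted with edgeR (4.0.16, R 4.3.3; filterByExpr, TMM, 1 coefficient per group, 8 residual degrees of freedom). The quasi-likelihood F tests are two-sided. Their p-values were adjusted by Benjamini-Hochberg over 20055 genes, with a threshold of 0.05, and an SE is the log2 change divided by the root of F. DESeq2 (1.42.0), other scalings, filters and left-out libraries were alternatives. Untreated cells were described on log2(RPKM + 0.5) with no test.

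Named genes were the 12 largest rises and 12 deepest falls among called genes with groups apart, at 50 CPM or more and 5 times the expected background, in each list up to 4 called genes, lowest adjusted p first, and vitamin D and bone genes chosen by name. The genes kept, the lists and the rules were chosen with earlier results of these data known. Results for a few of the genes these rules picked are left out of the text and figures.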

Additional observations from a re-analysis of the deposited data

Results flagged for a closer look

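The responses of 61 of 120 named genes differed between the days (interaction in edgeR's quasi-likelihood test, adjusted p below 0.05, over a background of 7.08% of all tested genes), and 58 of these kept the call and direction with scaling from genes of 20 CPM or more. Values are the day 35 response minus the day 3 response on the log2 scale. Naming rules picked many of these genes by their day 3 change, so their number is no result. In 55 the value was positive. Immediate-early and related factor genes that fell at day 3 had *Maff* (6.00), *Nr4a1* (5.66), *Atf3* (4.84), *Fosl2* (3.00), *Klf6* (2.63), *Jun* (2.52), *Cebpb* (1.79) and *Srf* (1.45). For growth factor, prostaglandin and feedback genes it was *Ptgs2* (6.50), *Trib1* (5.70), *Hbegf* (5.59), *Rgs16* (5.53), *Homer1* (5.52), *Errfi1* (5.33), *Inhba* (3.36), *Irs2* (2.45), *Tgfb2* (2.11), *Id1* (1.85) and *Smad7* (1.50). Matrix, protease and cytoskeletal genes had *Ctgf* (8.28), *Ankrd1* (5.37), *Plaur* (2.95), *Thbs1* (2.81), *Cyr61* (2.66), *Timp3* (2.33), *Dstn* (2.13), *Loxl2* (2.09), *Vcl* (1.74), *Igfbp6* (1.70), *Lmod1* (1.65), *Pdpn* (1.64), *Plau* (1.35), *Tagln* (1.12) and *Col6a3* (0.91). Cytokine, chemokine and interferon genes had *Il1rl1* (5.07), *Rsad2* (4.19), *Ccl7* (3.60), *Cxcl1* (3.04), *Ccl2* (2.61) and *Gbp2* (1.37). Among metabolic, guidance and stress genes it was *Sema7a* (3.20), *Acpp* (2.59), *Efnb2* (1.94), *Epha4* (1.64), *Hk2* (1.27), *Dnajb9* (1.15) and *Slc2a1* (1.12). Vitamin D, osteoclast and mineral genes had *Cyp24a1* (4.76), *Tnfsf11* (3.60), *Ank* (2.84), *Enpp3* (2.22), *Spp1* (2.08), *Dmp1* (1.99) and *Slc20a1* (1.47). The secreted Wnt inhibitor gene *Notum* had 3.57. A smaller or opposite response at day 35 was found for *Dio2* (-2.69), *Sp7* (-2.09), *C3* (-1.98), *Ppp1r3c* (-1.87) and *Ypel2* (-1.49). For *Sost* the fitted value was -11.18, but its day 3 vehicle libraries had 0 counts, so the size depends on the prior count and is no bound. Its day 3 hormone mean was near the level that background reads give.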

How the results depend on the processing

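The counts of calls depended on scaling and on single libraries. Of 1585 values of named genes under the alternatives, 1412 stayed on their side of the threshold, 156 lost the call, 17 gained it and 0 reversed a call. The sign of the change differed under at least 1 alternative in 8 named genes, none of them called. Of 105 named genes called, 74 kept the call under every alternative. Among them were the 12 rises and 12 falls named at 50 CPM or more. These 24 were picked as called and with groups apart in these same libraries, so keeping the call was largely set by the choice. *Sost*, with 0 vehicle counts at day 3 and the largest fitted rise of a named gene (log2 6.77), lost the call under 5 of 12 alternatives. Its hormone mean of 0.367 CPM was near the 0.313 CPM that the background gives for its length. DESeq2 called 6412 of all tested genes, 4407 of them higher, and 933 of the kept genes higher. Subtracting the background per kilobase left 2619 calls among all tested genes, 1179 of them higher. With only the 6 day 3 libraries in the fit 3691 of all tested genes were higher. Scaling from genes of 20 CPM or more in vehicle gave 3824 of all tested genes higher and 688 lower, 1602 kept genes higher and 664 lower, and differences between the days of 519 higher and 780 lower. Centring on the kept genes' median, chosen after seeing the data, gave 1102 higher and 761 lower. Asking for 2-fold left 788 kept genes, 266 higher and 522 lower, since fewer genes can pass. A level of 20 CPM left 266 higher, and the rule on vehicle levels alone left 389 higher. Why the scalings differ was not tested.

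Leaving out 1 library at a time gave 1750 to 3778 calls among all tested genes (804 to 1483 higher, 946 to 2295 lower). Among the kept genes it gave 1299 to 2748 calls (377 to 516 higher, 922 to 2232 lower). The differences between the days ranged from 737 to 1789 (581 to 1496 higher, 117 to 293 lower), and without day 35 hormone replicate 2 there were 1789, 1496 of them higher. Fewer samples enter each of these fits.

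The replicate numbers were checked for pairing and do not pair the libraries. Vehicle and hormone libraries of the same number deviated from their group means with correlations of -0.716, -0.466 and -0.035. With the number as a replicate block, 498 kept genes were higher and 1292 lower.

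In simulated libraries of the day 3 comparison, with 20055 genes in the fit, 68% of 2-fold and 100% of 4-fold changes were recovered, and 7.69% of the calls were false. Outside the changed genes, 100 for each fold, the simulated hormone group had the vehicle means. It held neither the extra background reads nor the shift of most genes seen in the real hormone libraries. The 7.69% is therefore no estimate of the false calls in the real comparison. Symbols with several rows in the files more often held few counts. In vehicle replicate 1, 43.4% of symbols with 1 row had over 100 counts, against 22.7% with 2 rows and 20.1% with more, so a low value there does not show absence. Among the kept genes 518 have several rows.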
